A study of Homo sapiens with 4 samples.

Results

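Proteasome transcripts were examined across 4 arrays of LS180, an established line of human colon carcinoma cells, by taking every gene whose symbol in the array annotation begins with PSMA, PSMB, PSMC, PSMD or PSME and whose probe set carries no other symbol. The rule found 37 of 8225 genes, read by 43 probe sets. Of these genes, 34 reached a log2 value of 5, the floor used here, on at least 1 array, as did 3588 of all genes. A gene read by more than 1 probe set is given by the one whose mean was highest, and the others are set beside it. The series has 4 groups of 1 array each: total RNA of RBM35A- cells, total RNA of RBM35A+ cells, polysomal RNA of RBM35A- cells and polysomal RNA of RBM35A+ cells. RBM35A, now called ESRP1, is an epithelial regulator of splicing. RBM35A+ cells carried a Tet-off RBM35A construct and had spent 6 days or more without doxycycline (Dox), while RBM35A- cells, named parental in the labels, stayed in Dox. Whether the RBM35A- cells hold the construct is not stated, so Dox, RBM35A and possibly the line changed together and cannot be told apart. All cells were taken at 80% confluency or less. TRIZOL was used for the total fraction, and polysomes were taken from a sucrose gradient; the labels name polyA RNA as the molecule, but the protocols describe no such selection. Fewer cells with a transcript and less of it per cell cannot be told apart in such bulk RNA.

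The proteasome is the protease that degrades ubiquitin-tagged proteins in the cytosol and nucleus. Its core particle, called 20S, is a barrel of stacked rings: outer rings of PSMA (alpha) subunits gate the entrance, and inner rings of PSMB (beta) subunits hold the catalytic sites. The 19S regulatory particle caps the barrel. Its base contains the PSMC ATPases, which unfold substrates, and its lid of PSMD subunits removes ubiquitin. PSME proteins are alternative caps that open the gate without 19S.

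Of 43 subunits and PSMD-named assembly chaperones whose symbols the rule covers, 36 had a probe set with 1 symbol. PSMA6, PSMA8, PSMB11, PSMC5, PSMD7, PSMD13 and PSME2 are not analysed here. The thirty-seventh gene by the rule, PSMC3IP, acts in meiotic recombination and is no subunit. It stayed below the floor on every array (3.37 to 3.60), as did the alpha subunit PSMA7 (3.32 to 3.39) and the immunoproteasome subunit PSMB9 (3.22 to 3.89), so nothing can be said of their differences. GCRMA values are log2 signals. They are compared only within a probe set, because probe sets differ in how well they bind.

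No probe set (0) was annotated to RBM35A, and the state of the cells therefore rests on the labels. Markers of colon epithelium were present, 13 of 14 on the array being analysed, whereas 1 of 10 haematopoietic markers (HBB) and 1 of 11 fibroblast and endothelial markers (COL1A1) were. Polysomal arrays had weaker signal toward the 5′ ends of control transcripts. RBM35A+ minus RBM35A- was -0.86 at the 5′ probe set of beta-actin and -0.79 at that of GAPDH in polysomal RNA, against -0.02 and -0.13 at their 3′ probe sets. The corresponding 5′ values in total RNA were -0.05 for beta-actin and -0.03 for GAPDH. The part of this in any polysomal value given here was not tested.

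In total RNA more proteasome genes lay below 0 than above it, while in polysomal RNA their share above 0 was near that of all genes. The median log2 difference, RBM35A+ minus RBM35A-, was -0.07 in total RNA over 34 members, against 0.002 over 3320 genes. In polysomal RNA it was 0.06 over 33 members, against 0.02 over 3391 genes. Below 0 in total RNA were 21 of 34 members (61.8%), against 49.3% of all genes, and above 0 in polysomal RNA were 21 of 33 (63.6%), against 56.4%. At 1.5-fold, 1 member was lower in total RNA, PSMA4, where 0.663% of all genes were, and 0 were higher, where 1.54% were. In polysomal RNA 0 members were 1.5-fold higher (0.767% of all genes) and 0 lower (1.3%). With 1 array a group no difference has a replicate check or a p-value. As a measure of error, probe sets of the same gene disagreed with an SD of 0.21 (total) and 0.19 (polysomal), and the SD over the members was 0.20 and 0.15. Most members thus differed by no more than probe sets of 1 gene do.

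**Figure D1:**
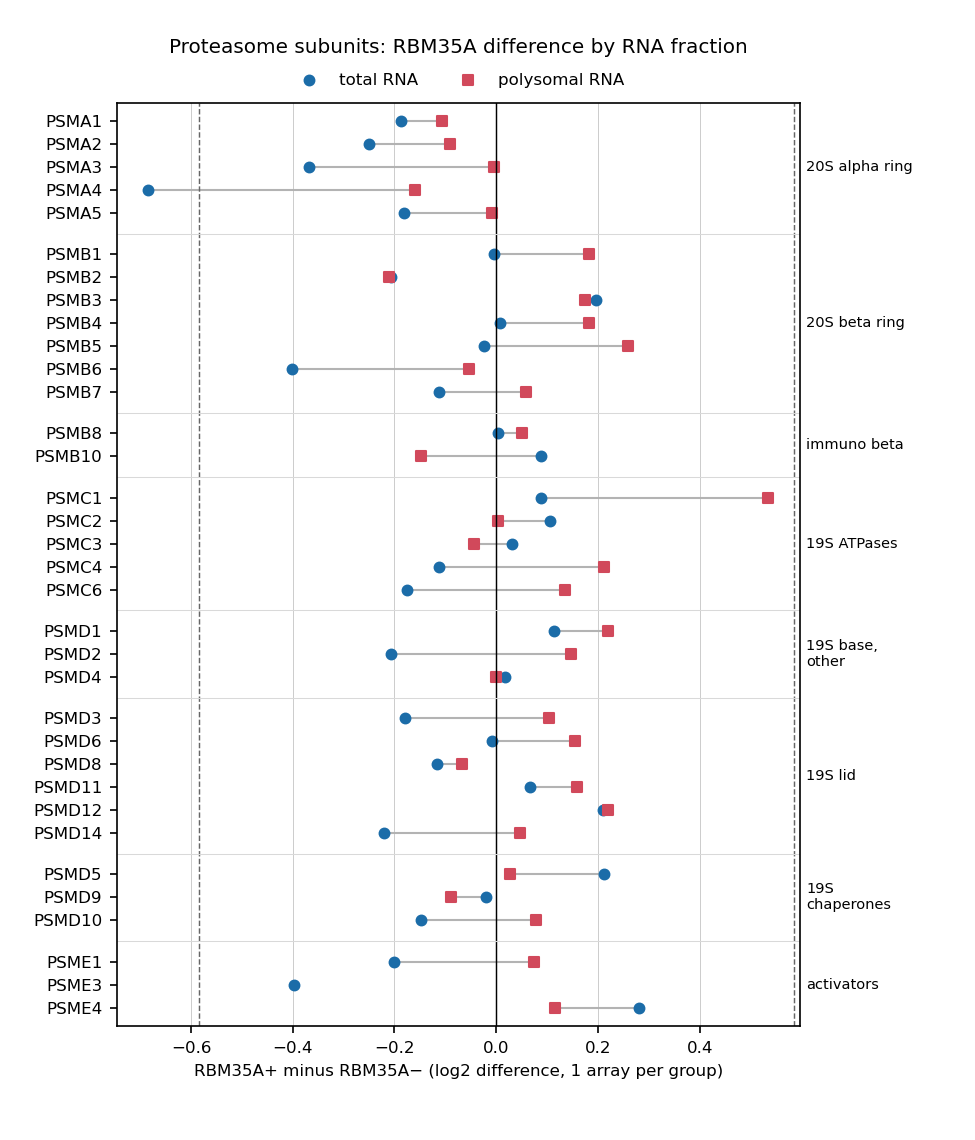
RBM35A+ minus RBM35A- log2 difference (x axis) of the 34 analysed genes (rows, by role) in total RNA (blue circles) and polysomal RNA (red squares), joined by a grey line, with 1 array per group; dashed lines mark 1.5-fold. All 5 alpha ring genes lie left of 0 in both fractions, PSMA4 alone passes 1.5-fold, at -0.68 in total RNA, and PSME3 has no polysomal point because both polysomal values were below the floor.

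Promoters were looked at for the members because cells coordinate proteasome genes through the antioxidant response element, a site for the factors NFE2L1 and NFE2L2. The letters TGACNNNGC, on either strand, were searched in the 300 bases around each start site (250 before, 50 after) in RefSeq's promoter table for GRCh38.p14. It held 32 of the 37 genes. Of these, 11 had a match (34.4%), against 16.1% of 27305 genes in the table. Of 30 analysed members 10 had a match (33.3%), against 22.4% of 3031 analysed genes. A gene was counted if any of its promoters matched, and the sets differed in promoters per gene. There were 38 promoters for the 32 genes, 35 for the 30, 4620 for the 3031 and 35093 for the 27305. The part of this in the shares was not tested. Among analysed members the differences of those with a match ran from -0.68 (PSMA4) to 0.28 (PSME4) in total RNA, and 5 of 10 were below 0. Among those without a match 13 of 20 were below 0. The ETS core CCGGAAG was in 9 of the 30 analysed members (30%), against 22.6% of analysed genes. The CCAAT box was in 15 (50%, against 44.9%) and the GC box GGGCGG in 18 (60%, against 80.3%), each on either strand. These are matches of letters, not sites shown to be bound.

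The windows that follow, each upstream of a start site and read in the direction of the gene, belong to members at the ends of the comparisons: PSMA4, lowest in total RNA; PSME4 and PSMD12, among the 3 highest there; PSMB3, among the 3 lowest in polysomal against total RNA; and PSMD5 and PSMD3, the lowest and the highest in polysomal against total RNA. Capitals mark the match, which in PSME4 reads on the opposite strand.
PSMA4 (chr15:78540630-78540698, plus strand): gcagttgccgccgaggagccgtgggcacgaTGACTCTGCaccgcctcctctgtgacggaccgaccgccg
PSMB3 (chr17:38752607-38752675, plus strand): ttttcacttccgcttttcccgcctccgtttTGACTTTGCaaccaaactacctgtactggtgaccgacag
PSMD12 (chr17:67366704-67366772, minus strand): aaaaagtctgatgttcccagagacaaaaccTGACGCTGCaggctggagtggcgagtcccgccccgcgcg
PSMD3 (chr17:39980740-39980806, plus strand): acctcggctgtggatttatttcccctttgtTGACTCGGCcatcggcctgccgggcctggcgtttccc
PSMD5 (chr9:120843018-120843086, minus strand): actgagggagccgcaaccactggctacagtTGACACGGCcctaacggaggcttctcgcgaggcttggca
PSME4 (chr2:53970994-53971057, minus strand): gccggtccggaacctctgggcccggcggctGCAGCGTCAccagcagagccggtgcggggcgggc
Counted from the start site, the match shown begins at position -126 in PSMA4, -104 in PSMB3, -165 in PSMD12, -37 in PSMD3, -134 in PSMD5 and -34 in PSME4.

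All 5 analysed alpha ring genes were below 0 in total RNA (median -0.25), where 49.3% of all genes were, and all 5 in polysomal RNA (median -0.09), where 42.8% were. Below 0 in both fractions were 26.2% of all genes. Every polysomal difference of the 5 was smaller than the probe-set SD of 0.19, and those of PSMA3 and PSMA5 were near 0. PSMA4 read 10.24 (RBM35A-) and 9.56 (RBM35A+) in total RNA and 9.21 and 9.05 in polysomal RNA. It was 1.61-fold lower in total RNA (-0.68), the ninth lowest of 3320 genes, and -0.16 in polysomal RNA. Its second probe set read 8.09 and 7.79 in total RNA and 7.89 and 7.86 in polysomal RNA, a difference of -0.30 and -0.03. The 2 probe sets therefore had the same signs in both fractions but sizes that differed by 0.38 in total RNA, more than the probe-set SD.

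PSMA3 was at 10.60 (RBM35A-) and 10.24 (RBM35A+) on the total RNA arrays and was at 9.05 on both polysomal ones. Its difference was -0.37 in total RNA and -0.005 in polysomal RNA. PSMA2 read 8.73, 8.48, 7.80 and 7.71 in the order total RBM35A-, total RBM35A+, polysomal RBM35A-, polysomal RBM35A+, an order kept for all genes that follow, and differed by -0.25 and -0.09. The RBM35A- array was the higher one in both fractions for each of these genes. PSMA5, at 7.02, 6.84, 6.33 and 6.33, differed by -0.18 and -0.009. PSMA1, the dimmest of the analysed alpha probe sets, was at 5.72, 5.53, 5.59 and 5.49, with -0.19 and -0.11.

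Catalytic subunits of the constitutive beta ring were all below 0 in total RNA and lay on both sides of 0 in polysomal RNA. PSMB6, which carries the caspase-like site, read 11.25, 10.85, 10.88 and 10.83. Its difference of -0.40 in total RNA was the second lowest among the members, and in polysomal RNA it was -0.05. PSMB5, the chymotrypsin-like subunit and the main target of proteasome inhibitor drugs, read 11.42, 11.40, 11.19 and 11.45. It was nearly level in total RNA (-0.02) and 0.26 higher in polysomal RNA, the second highest member there. PSMB7, the trypsin-like subunit, read 9.36, 9.25, 9.52 and 9.58, with differences of -0.11 and 0.06. Its other probe set gave -0.20 and -0.04, so the sign in polysomal RNA depended on the probe set.

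The non-catalytic beta subunits lay on both sides of 0. PSMB2 was the lowest member in polysomal RNA: it read 12.39, 12.18, 11.68 and 11.47, a difference of -0.21 in each fraction. PSMB3 was at 11.26, 11.45, 9.99 and 10.16, higher in RBM35A+ cells by 0.20 and 0.18. These 2 genes were therefore alike across fractions and opposite to each other. PSMB1 (11.82, 11.82, 11.91 and 12.10) differed by -0.004 and 0.18. PSMB4 read 10.44, 10.44, 10.05 and 10.24, with 0.007 and 0.18, and its other probe set read 10.53, 10.60, 9.98 and 10.06, with 0.07 and 0.08. In polysomal RNA 5 of the 7 constitutive beta genes were above 0 (median 0.18), against 56.4% of all genes, and in total RNA 2 were (median -0.02), where 50.3% of all genes were.

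Of the immunoproteasome subunits, which replace catalytic beta subunits in cells exposed to interferon, both analysed genes were near 0 in total RNA. PSMB8, the counterpart of PSMB5, read 7.28, 7.28, 7.58 and 7.63, a difference of 0.003 in total and 0.05 in polysomal RNA. PSMB10, the counterpart of PSMB7, read 6.22, 6.31, 5.42 and 5.27, with 0.09 and -0.15. It was the third lowest member in polysomal RNA, but not beyond the probe-set SD. Among 12 analysed genes of MHC class I loading and the interferon response the medians were -0.07 and -0.09, and 0 were 1.5-fold higher or lower in either fraction. TAP1, the peptide transporter encoded beside PSMB9, was at 5.07, 5.17, 6.05 and 6.45, with 0.10 and 0.40, the highest of the list in polysomal RNA. B2M, the light chain of MHC class I, was the lowest there, at 13.50, 13.49, 11.28 and 10.77, with -0.01 and -0.51. In total RNA CALR, a chaperone of class I assembly, was the highest (0.40) and IFI35, an interferon-induced gene, the lowest (-0.30). Below 0 in total RNA were 9 of the 12 (75%), against 49.3% of all genes, and in polysomal RNA 7 (58.3%), against 42.8%.

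**Figure D2:**
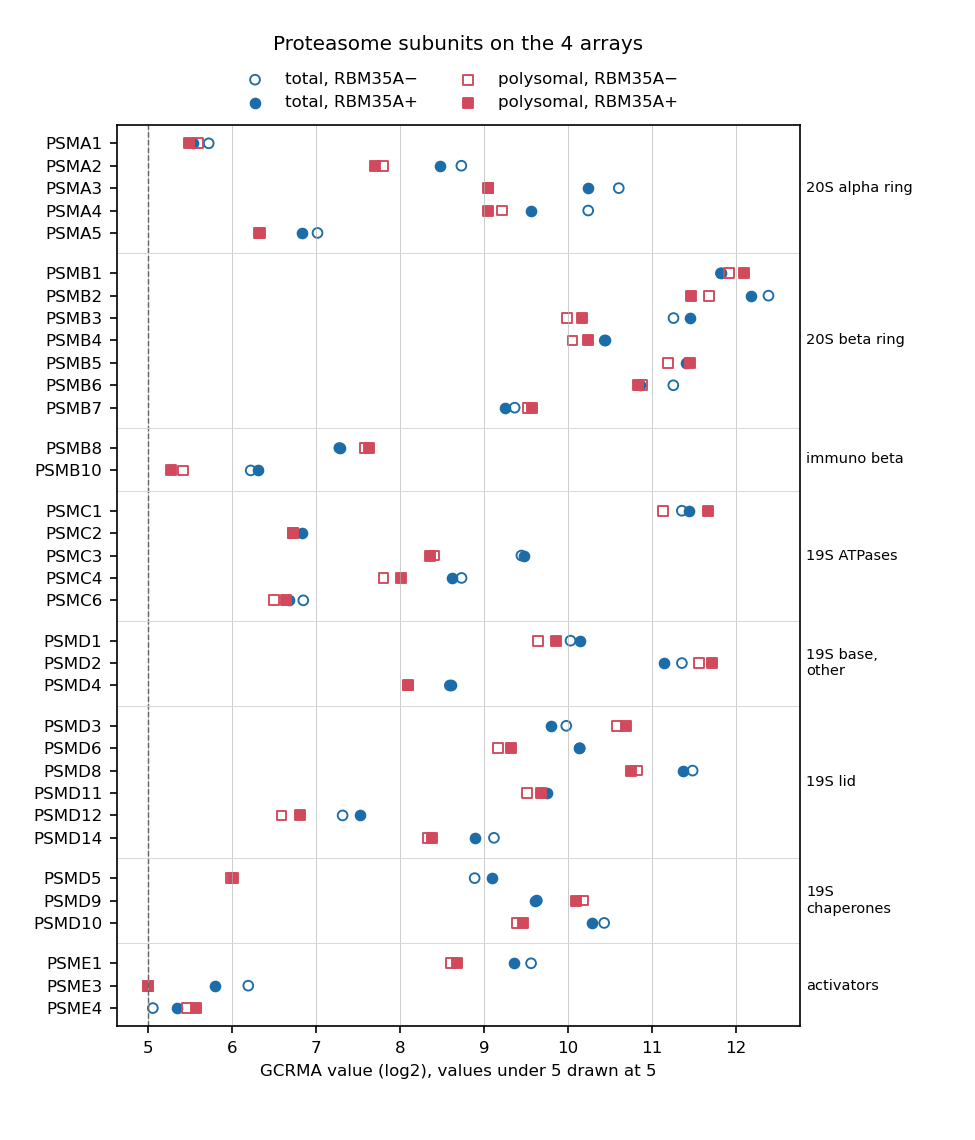
GCRMA value (x axis, log2) of the 34 analysed genes (rows, by role) on each array: total RNA as blue circles and polysomal RNA as red squares, open for RBM35A- and filled for RBM35A+, with values under 5 drawn at the floor of 5 (dashed line). Polysomal squares lie left of the total RNA circles for most genes, farthest for PSMD5, and both lie right of both circles for 7 genes: PSMD3, PSMD9, PSMB8, PSMD2, PSME4, PSMB7 and PSMB1.

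The highest polysomal difference of any member was that of 1 of the 19S ATPases, PSMC1. PSMC1 read 11.35 and 11.44 in total RNA and 11.13 and 11.67 in polysomal RNA. The RBM35A+ polysomal array was the highest of its 4 values, and the RBM35A- polysomal array the lowest. Its difference of 0.54 in polysomal RNA, 1.45-fold, lay above 98.8% of all genes, while in total RNA it was 0.09. PSMC4 read 8.73, 8.62, 7.80 and 8.01 and differed by -0.11 and 0.21. PSMC6, at 6.85, 6.67, 6.50 and 6.64, differed by -0.18 and 0.14, and it too changed sign between fractions. PSMC2 (6.73, 6.83, 6.72 and 6.73) was at 0.11 and 0.004, and PSMC3 (9.44, 9.48, 8.40 and 8.36) at 0.03 and -0.04. Of the 5 ATPase genes 4 were above 0 in polysomal RNA (median 0.14) and 3 in total RNA (median 0.03), against 56.4% and 50.3% of all genes.

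The other base subunits are scaffolds and ubiquitin receptors. PSMD1, a large scaffold, read 10.03, 10.14, 9.64 and 9.86, and at 0.22 was the third highest member in polysomal RNA, with 0.11 in total RNA. PSMD2, the other large scaffold, read 11.36, 11.15, 11.56 and 11.71, with -0.21 and 0.15. The pair thus had opposite signs in total RNA and the same sign in polysomal RNA. PSMD4, a receptor for ubiquitin chains, was level in both fractions (8.59, 8.61, 8.10 and 8.09; 0.02 and -0.001).

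Of 6 lid genes 5 were above 0 in polysomal RNA (median 0.13), against 56.4% of all genes, and 4 were below 0 in total RNA (median -0.06), against 49.3%. Only PSMD12 in polysomal RNA and PSMD14 in total RNA exceeded the probe-set SD. PSMD12 was the highest of them in both fractions: it read 7.32, 7.53, 6.59 and 6.81, with 0.21 and 0.22. PSMD14, the deubiquitinase that cuts ubiquitin chains from substrates, read 9.12, 8.90, 8.33 and 8.38, with -0.22 and 0.05, the lowest of the lid in total RNA. The remaining lid subunits have structural roles. PSMD3 (9.98, 9.80, 10.59 and 10.69) differed by -0.18 and 0.10. PSMD11 (9.68, 9.75, 9.52 and 9.67) and PSMD6 (10.14, 10.13, 9.17 and 9.32) were at 0.07 and -0.009 in total RNA, and each was at 0.16 in polysomal RNA. PSMD8 read 11.48, 11.37, 10.82 and 10.75, with -0.12 and -0.07, and its other probe set gave -0.08 and 0.02.

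PSMD5, PSMD9 and PSMD10 carry subunit symbols but act as chaperones in the assembly of the ATPase ring. PSMD5 read 8.89 and 9.10 in total RNA and 5.98 and 6.01 in polysomal RNA, so that both polysomal arrays were far below both total RNA arrays. Its RBM35A difference was 0.21 in the total fraction and 0.03 in the polysomal one. PSMD10, also known as gankyrin, was at 10.43, 10.28, 9.39 and 9.46 (-0.15 and 0.08). PSMD9 was at 9.63, 9.61, 10.18 and 10.09 (-0.02 and -0.09), and its other probe set gave -0.18 and -0.10, the same signs.

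Activators differed among themselves. PSME3, a nuclear cap that does not need ATP, read 6.19 and 5.80 in total RNA, a difference of -0.40, the third lowest member, and below the floor on both polysomal arrays (4.69 and 4.92), where its difference is unknown. PSME1, a cap of the interferon-inducible type, read 9.56, 9.36, 8.60 and 8.68, with -0.20 and 0.07. PSME4, a large cap linked to acetylated histones, was the highest member in total RNA at 0.28: it read 5.06, 5.34, 5.46 and 5.58, close to the floor, with 0.11 in polysomal RNA. Here the RBM35A+ array was the higher one in both fractions.

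Proteasome transcripts had a lower signal in polysomal than in total RNA. The median polysomal minus total difference of the 34 members was -0.58 in RBM35A- and -0.51 in RBM35A+ cells, while over all genes it was 0.10 in both (3541 and 3537 genes). Below 0 were 27 members in RBM35A- cells and 25 in RBM35A+ cells, against 44.3% and 44% of all genes. Above 0 were 7 and 9, against 55.7% and 56%. Medians below 0 were not confined to the members. In RBM35A- and RBM35A+ cells they were -0.58 and -0.39 for VCP and ubiquitin shuttle factors (9 genes). For ubiquitin and its enzymes they were -0.36 and -0.34 (14), and for colon epithelial markers -0.44 and -0.66 (13). Proteasome partners outside the rule (8) had 0.15 and 0.44, and the MHC class I and interferon list (12) had 0.13 and 0.29. At 1.5-fold, 17 members were lower in polysomal RNA of RBM35A- cells and 1 was higher, where 17.7% and 26.3% of all genes were. In RBM35A+ cells these counts were 14 and 1, against 17.6% and 26.7%. In both states 14 members (41.2%) were 1.5-fold lower, against 14.9% of 3490 genes. The states were read by the same probe sets, and the arrays of a fraction were normalized together, so their agreement is no replicate check. Higher by 1.5-fold in both was 1 (2.94%, against 23.3%). Members below 0 in both numbered 25 (73.5%, against 39.5%) and above 0 in both 7 (20.6%, against 51.5%). This comparison carries a larger error. Probe sets of the same gene disagreed with an SD of 0.81 in RBM35A- and 0.84 in RBM35A+ cells, and the fractions were normalized apart and extracted by different methods. For beta-actin in RBM35A- cells the same quantity was -4.51 by the 5′ probe set and -0.30 by the 3′ one. Where on its transcript each member's probe set lies was not used, and the part of these differences in the members' values was not tested.

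PSMD5 was at the far end, with -2.91 in RBM35A- and -3.09 in RBM35A+ cells. Those values correspond to 7.50-fold and 8.52-fold, and in RBM35A- cells 0.339% of all genes were lower. PSMD5 had no second probe set, and its polysomal values of 5.98 and 6.01 were not far above the floor. PSMA3 followed at -1.55 and -1.19, and PSMB3 at -1.27 and -1.29. PSME3 was at -1.19 and -0.80 with its polysomal values raised to the floor, so these are the smallest sizes its values allow. PSMC3 (-1.04 and -1.12), PSMD10 (-1.05 and -0.82), PSMA4 (-1.03 and -0.50) and PSMD6 (-0.97 and -0.81) came next. These genes came from the core, base, lid, chaperones and activators, but class medians were of unequal size. In RBM35A- and RBM35A+ cells they were -0.93 and -0.51 for alpha and -0.37 and -0.02 for constitutive beta genes. Immunoproteasome genes had -0.25 and -0.34, ATPases -0.35 and -0.10, and other base subunits -0.39 and -0.28. Lid genes had -0.69 and -0.57, chaperones -1.05 and -0.82, and activators -0.96 and -0.68. At the other end PSMD3 was 0.61 and 0.89 higher in polysomal RNA, PSMD9 0.55 and 0.49, PSMD2 0.21 and 0.56, PSME4 0.40 and 0.24 and PSMB8 0.31 and 0.35.

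Where a member had a second probe set, the values by both could be compared. PSMD8 was at -0.66 and -0.61 by the probe set used but 0.62 and 0.73 by the other. PSMB7 was at 0.15 and 0.32 by the one used and -0.91 and -0.75 by the other. PSMD9 was above 0 by both, with 1.84 and 1.92 at the other probe set, and PSMB4 below 0 by both (-0.55 and -0.54 at the other). PSMA4 was at -0.20 and 0.07 by its other probe set. Of 5 members with a second probe set above the floor, 2 kept their sign in both states, PSMB4 and PSMD9. For these 5 genes the probe sets lay 0.17 to 1.28 apart in RBM35A- cells, whereas their RBM35A differences in total RNA lay 0.03 to 0.38 apart.

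**Figure D3:**
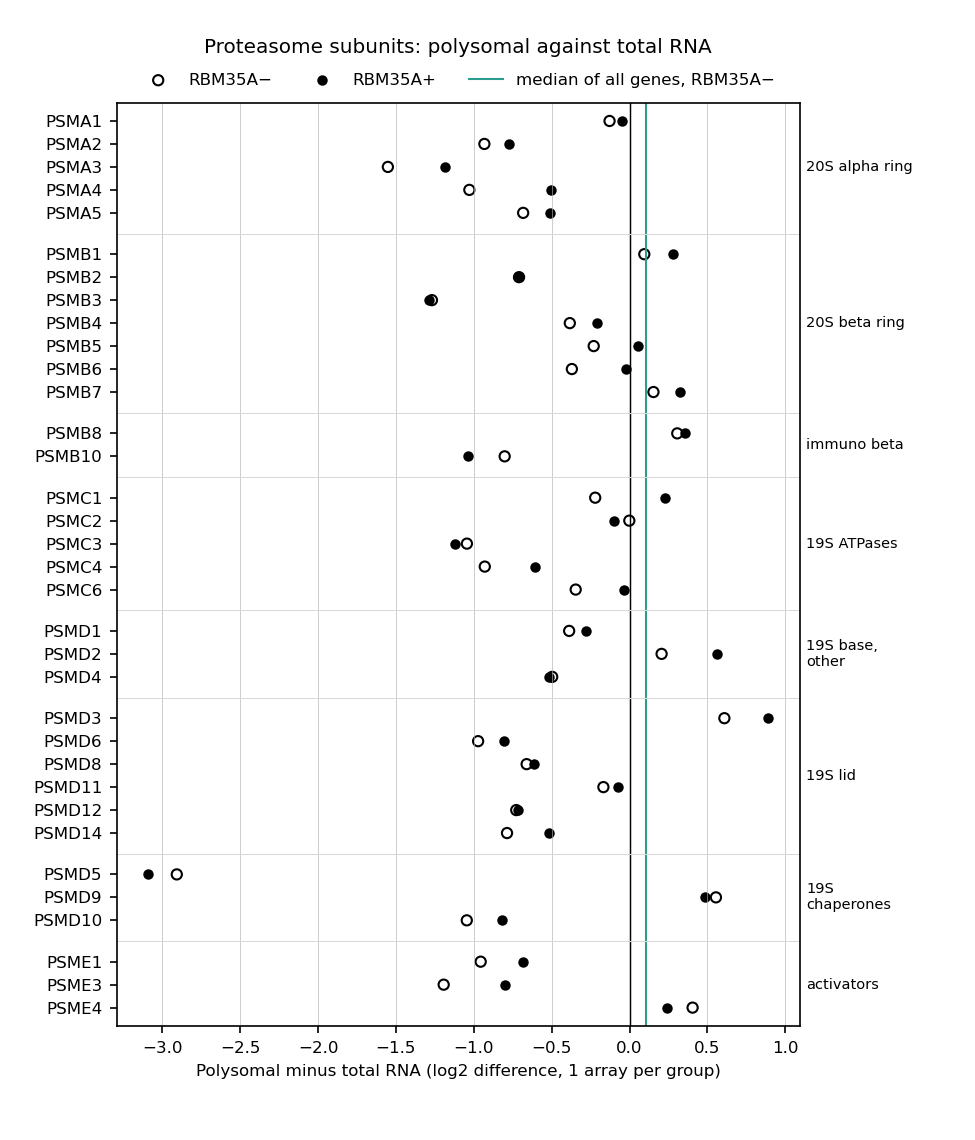
Polysomal minus total RNA log2 difference (x axis) of the 34 analysed genes (rows, by role) in RBM35A- (open) and RBM35A+ cells (filled), 1 array per group; the green line is the median of all genes in RBM35A- cells (0.10). Most points lie left of the line, PSMD5 at -2.91 and -3.09, and the filled point lies right of the open one for 24 of the 33 genes whose polysomal values reached the floor.

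The difference between RBM35A+ and RBM35A- cells was more positive in polysomal than in total RNA for most members. The difference of differences (polysomal minus total RNA) had a median of 0.16 over 33 members, against 0.002 over 3123 genes. Above 0 were 24 members (72.7%), where 50.5% of genes were. Medians above 0 were not confined to the members. Partners outside the rule had 0.43 (5 of 7 above 0), and ubiquitin and its enzymes 0.10 (8 of 13). For VCP and ubiquitin shuttle factors it was -0.05 (4 of 9). The MHC class I and interferon list had 0.04 (7 of 12), and colon epithelial markers had -0.25 (3 of 13). At 1.5-fold, 0 members were on either side, against 1.02% and 2.4% of genes higher and lower. The highest were PSMA4 at 0.53 (other probe set 0.27), PSMC1 at 0.45 and PSMA3 at 0.36, then PSMD2 (0.35), PSMB6 (0.35), PSMC4 (0.32) and PSMC6 (0.31). PSMA4, PSMA3 and PSMB6 reached this by a low value in total RNA with a polysomal value nearer 0, and PSMC1 by a high polysomal value. The lowest were PSMB10 (-0.24), PSMD5 (-0.18) and PSME4 (-0.17). Probe sets of 1 gene disagreed with an SD of 0.24 for this quantity.

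By class, all 5 alpha genes (median 0.17), 5 of 7 constitutive beta genes (0.18) and all 6 lid genes (0.13) were above 0, as were 3 of 5 ATPases (0.31) and 2 of 3 other base subunits (0.11). Chaperones had 1 of 3 above 0. Below 0 in total RNA and above 0 in polysomal RNA were 11 of 33 members (33.3%), against 21.9% of genes, and the opposite pattern was seen in 3 (9.09%), against 17.6%. Both differences were above 0 in 10 members (30.3%, against 33%) and below 0 in 9 (27.3%, against 26.2%). Across the 33 members, which are not independent replicates and share the same arrays, the total and polysomal differences correlated with Pearson's r = 0.45 and Spearman's rho = 0.45, and without PSMA4 with r = 0.37. Over 3123 genes r was 0.29.

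**Figure D4:**
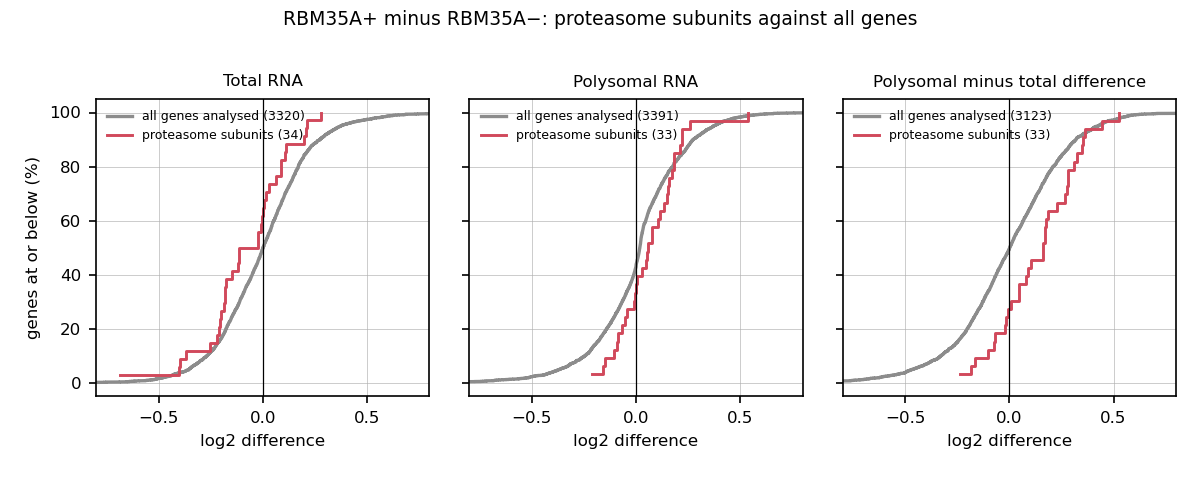
Cumulative percent of genes (y axis) at or below a given RBM35A+ minus RBM35A- log2 difference (x axis, drawn from -0.8 to 0.8) for proteasome subunits (red) and all analysed genes (grey), in total RNA, in polysomal RNA and for the polysomal minus total difference between them. The red line lies left of the grey one at 0 in total RNA (61.8% against 49.3% below 0) and right of it in the third panel (27.3% against 49.5% below 0).

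A model with RBM35A state and RNA fraction was fitted to all 3588 genes with limma. It called 0 of 34 members for RBM35A state at an adjusted p of 0.05, and 0 of all genes. At an unadjusted p under 0.05 it had 1 member, PSMA4, against 10.3% of all genes (5.55% higher, 4.74% lower). The mean difference of PSMA4 over both fractions was -0.42 (SE 0.145, adjusted p = 0.442 with limma), lower in 2 of 2 fractions. PSMC1, the next, had 0.31 (SE 0.134, adjusted p = 0.488 with limma), higher in 2 of 2. The residual has 1 degree of freedom, the gap between the state differences of the fractions. limma moderates the residual variance of each gene toward a value shared by all genes. These p-values therefore set a difference against gaps between fractions pooled over genes, and not against its own gap alone. They hold no spread between cultures. No member, PSMA4 included, was tested against its own gap alone. PSME3 entered the model with both polysomal values at the floor.

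Partners of the proteasome outside the symbol rule were also looked at. Of 8 analysed, 6 of 7 with a known total RNA difference were below 0 (85.7%, median -0.17), against 49.3% of all genes, and 5 of 8 were above 0 in polysomal RNA (62.5%, median 0.07), near the 56.4% of all genes. None (0) was 1.5-fold higher or lower in either. PSMG1, a chaperone of the alpha ring, read 7.49, 6.93, 7.68 and 7.63, with -0.55 in total and -0.05 in polysomal RNA. ADRM1, a ubiquitin receptor of the 19S base, read 10.99, 10.84, 10.74 and 11.13, with -0.15 and 0.39. USP14, a deubiquitinase that docks on the base, was the highest in total RNA at 0.14, with -0.05 in polysomal RNA. NFE2L2, a transcription factor that binds antioxidant response elements, read 9.32, 9.30, 8.56 and 8.05, with -0.03 and -0.51, the lowest of the partners in polysomal RNA.

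Upstream of the proteasome, 14 genes of ubiquitin and its activating and conjugating enzymes were analysed. In total RNA 10 of 14 were below 0 (median -0.12), against 49.3% of all genes, and 1 was 1.5-fold lower, against 0.663%. In polysomal RNA 7 of 13 were above 0 (53.8%, median 0.007), against 56.4%, with 0 past 1.5-fold. UBE2G1, a conjugating enzyme, was the lowest in total RNA (6.40 to 5.76, -0.64) and below the floor on both polysomal arrays. UBA1, the main activating enzyme, read 10.98, 11.28, 9.87 and 10.13 and was higher by 0.30 and 0.27. In polysomal RNA the conjugating enzymes UBE2G2 (0.31) and UBE2E3 (-0.37) were the highest and the lowest. The 9 genes of the segregase VCP, known as p97, and of ubiquitin shuttle factors had medians of -0.01 and 0.03. BAG6, a chaperone for misplaced membrane proteins, was the highest in total RNA at 0.42, and the VCP cofactor UFD1 (8.52, 8.33, 8.58 and 8.94) was at -0.19 and 0.36, the highest in polysomal RNA. The lowest were the shuttle factor UBQLN2 in total RNA (-0.25) and the VCP-binding UBXN4 in polysomal RNA (-0.27).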

How the data were processed

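The deposited values are log2 signals, a scale inferred from their range. Per the submitters' processing notes the authors used GCRMA, whose version is not given in the sources used here. Affymetrix HG-U95Av2 arrays were hybridized with cRNA from 10 µg of RNA. Sorted values matched within each fraction (to 4.29e-06 in total and 6.61e-06 in polysomal RNA) but differed between fractions by up to 0.227, so each pair was quantile normalized alone and a shift of most genes would be lost.

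Of 12626 probe sets, 67 were controls, 10943 had 1 symbol, 546 several and 1070 none. Symbols were updated by gene ID in a RefSeq table of GRCh38.p14 (10934 matched). Values under 5 were raised to 5, a difference with both values floored was left out, and where 1 value was floored the true size is at least that given. Differences were counted at 1.5-fold. limma 3.58.1 in R 4.3.3 used Benjamini-Hochberg adjustment. The number of arrays limits the precision. The scripts were tested on simulated data. Any analysed member may be named, with all 4 values at least for the 3 highest and 3 lowest of each comparison; of the other lists, the highest and lowest gene. Members and lists were chosen with earlier results of these data known. Alternatives were floors of 4 and 6, no floor, probe-set means, no shared-sequence probe sets, lowess removal and joint quantile normalization.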

Additional observations from a re-analysis of the deposited data

Results flagged for a closer look

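The RBM35A difference had opposite signs in total and polysomal RNA in 14 of the 33 members, which is given as values because the difference between fractions was not tested, each group having 1 array. In 0 of the 14 did both differences reach the probe-set SD. The difference of differences, polysomal minus total, was 0.35 for PSMD2, 0.32 for PSMC4, 0.31 for PSMC6, 0.28 for PSMB5, 0.28 for PSMD3, 0.27 for PSME1 and 0.27 for PSMD14. It was 0.23 for PSMD10, 0.19 for PSMB1, 0.17 for PSMB7 and 0.16 for PSMD6. The members that were above 0 in total RNA and below 0 in polysomal RNA were PSMB10 (-0.24), PSMC3 (-0.074) and PSMD4 (-0.018).

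Left out of every comparison were 3 probe sets that the annotation gives 2 symbols, 1 of them a symbol of the proteasome, and whose signal was above the floor on all 4 arrays. Their polysomal RBM35A+ minus RBM35A- differences were 0.36, 0.15 and 0.13, beside -0.03, 0.09 and -0.02 in total RNA.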

How the results depend on the processing

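The RBM35A medians of the members kept their sign under all 7 alternatives, as did the counts below 0 to within 1.5 times. The count of 1 member 1.5-fold lower in total RNA (PSMA4) became 0 with the mean of probe sets, and that of 0 members with a 1.5-fold higher difference of differences became 1 with a floor of 4 and 1 with no floor. For polysomal minus total RNA the median of -0.58 in RBM35A- cells became -0.39 with no floor, and that of -0.51 in RBM35A+ cells became -0.28 with no floor and -0.33 with the mean of probe sets. The 1 member that was 1.5-fold higher became 2 with no floor and 2 with the mean of probe sets in both states, and 0 in RBM35A- cells after lowess removal and 0 after joint quantile normalization. PSMD8 turned from -0.61 to 0.057 in RBM35A+ cells with the mean of probe sets. The causes were not tested. Lowess removal and joint quantile normalization moved the all-gene median from 0.10 to 0.007 and 0.03 in RBM35A- cells and to -0.02 and 0.02 in RBM35A+ cells; the members' median minus it was -0.68 and -0.69, then -0.60 and -0.62, against -0.68 and -0.61 as deposited. limma called 0 members under every alternative run, with 1 to 3 at an unadjusted p under 0.05.

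No paired analysis was possible because each group had 1 array and so no replicate numbers to pair, and leaving out a replicate was not run; the limma model compares the states within each fraction, the fraction being a term of it. Signal over background limits PSMA1, PSMB10, PSME3 and PSME4, which lay near the floor. It also limits PSMD5 in polysomal RNA, where its values were 5.98 and 6.01.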

Other observations

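The COP9 signalosome, a relative of the proteasome lid that removes NEDD8 from ubiquitin ligases, was read by 6 analysed genes. Its median RBM35A difference was -0.10 (total) and 0.08 (polysomal); 0 of the 6 were 1.5-fold higher or lower in either. The isopeptidase COPS5, the counterpart of PSMD14, read 8.04 and 8.03 in total RNA and 7.37 and 7.82 in polysomal RNA, with differences of -0.02 and 0.45. COPS7A was at 6.07, 5.56, 5.81 and 5.46, with -0.52 and -0.35. The median difference of differences was 0.17, with 4 of 6 genes above 0, against 50.5% of all genes. The polysomal minus total difference of the list was -0.47 in RBM35A- and -0.19 in RBM35A+ cells.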
